A study of Mus musculus with 4 samples.

Results

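The TNF receptor family genes described here are 8 receptors and 1 adaptor, in regulatory T (Treg) cells held for 3 h with the cytokine TSLP or with PBS. The 9 members are Tnfrsf4, Tnfrsf9, Tnfrsf18, Cd27, Tnfrsf1a, Tnfrsf1b, Tnfrsf25, Fas and Traf1. They were taken by name from the 24418 genes listed, and all 9 were found once. The donors were Foxp3 YFP-Cre mice of 8 to 12 weeks, whose spleens and lymph nodes gave the cells of both groups. These mice carry a yellow fluorescent protein and Cre recombinase at the Foxp3 locus. The cells were enriched magnetically as CD4+ T cells and then sorted with staining for CD4 and the dead-cell dye 7-AAD. Sorted cells received 100 ng/mL TSLP or PBS, with 2 samples in each group (PBS 1, PBS 2, TSLP 1 and TSLP 2). How many mice gave each sample was not given in the sources used here, so the p-values measure only the spread between these samples, which may be technical.

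Receptors of this family bind trimeric ligands of the TNF family at the cell surface and pass the signal on through TRAF adaptors, or through death domains in the cytoplasmic tail. OX40, 4-1BB, GITR and CD27 act as costimulatory receptors of T cells, and several of them are characteristic of Treg cells, in which T cell receptor signals raise them. TSLP, thymic stromal lymphopoietin, is an epithelial cytokine whose receptor signals through JAK kinases and STAT5.

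Reads on genes came to 11328132 (PBS 1), 10724392 (PBS 2), 11761234 (TSLP 1) and 10271571 (TSLP 2). A gene with 0 reads may have had up to 3, or 0.255 to 0.292 cpm (reads scaled to the same library total), a limit that covers counting error only. The Treg label was checked against defining markers. Foxp3, the lineage factor, had 2514 reads in PBS 1 against 5065, 4784 and 4824 in PBS 2, TSLP 1 and TSLP 2, and Il2ra, the high-affinity IL-2 receptor chain, had 3872, 4782, 5097 and 5113. Both markers were present in all 4 libraries and lowest in PBS 1, the library in which 7 of the 9 members were highest. Ikzf2 and Ikzf4, in the same list of Treg and T cell markers, were also lowest in PBS 1. Normalized counts in PBS 1, PBS 2, TSLP 1 and TSLP 2 were 6234, 10470, 11040 and 10230 for Ikzf2. Those of Ikzf4 were 797.7, 1873, 1576 and 1450. Some genes of the list went the other way, among them Ctla4, an inhibitory receptor of Treg cells. Its normalized counts were 14100 in PBS 1 and 12250, 13270 and 13450 in PBS 2, TSLP 1 and TSLP 2.

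The members lie on 4 chromosomes of the mouse genome (GENCODE M21, GRCm38). Tnfrsf1b (4:145213463-145246870), Tnfrsf9 (4:150914562-150946102), Tnfrsf25 (4:152115934-152120119), Tnfrsf4 (4:156013843-156016612) and Tnfrsf18 (4:156026164-156028895) are on chromosome 4. Tnfrsf4 and Tnfrsf18 are neighbours on the plus strand, 9551 bases apart. Cd27 (6:125232622-125237010) and Tnfrsf1a (6:125349362-125362484) are 112351 bases apart on chromosome 6, while Fas (19:34290666-34327772) and Traf1 (2:34941750-34961772) stand alone. RefSeq promoter windows (GRCm38.p6, 250 bases before to 50 after each start) were matched for 9 of 9 members and numbered 11, since Tnfrsf9 and Tnfrsf25 have a pair each. They were searched on both strands for TTCNNNGAA, the palindrome that STAT5 binds, GGNNTTTCC, a spelling of the kappa B site that NF-kB binds, and TGANTCA, the AP-1 site. These 3 spellings were kept after matches to 6 had been seen. TTCNNNGAA was found in 6 of the 11 windows, those of Tnfrsf1b, Tnfrsf18, Tnfrsf1a and Fas and 1 of each pair of Tnfrsf9 and Tnfrsf25, against 8.3% of all 32851 windows. GGNNTTTCC was found in 2 of the 11 (Tnfrsf9 and Tnfrsf25) against 5.82%, and TGANTCA in 2 (Tnfrsf9 and Fas) against 7.81%. The windows shown are 3, those of the receptors with the largest difference in each direction between TSLP and PBS and the only one that held all 3 spellings. Matches are in capitals, 5′ to 3′ on the strand of the gene, and none overlapped another. They are descriptions of letters, and no binding was measured.
Tnfrsf1a, chr6:125349473-125349772, plus strand, TTCNNNGAA 244 bases before the start: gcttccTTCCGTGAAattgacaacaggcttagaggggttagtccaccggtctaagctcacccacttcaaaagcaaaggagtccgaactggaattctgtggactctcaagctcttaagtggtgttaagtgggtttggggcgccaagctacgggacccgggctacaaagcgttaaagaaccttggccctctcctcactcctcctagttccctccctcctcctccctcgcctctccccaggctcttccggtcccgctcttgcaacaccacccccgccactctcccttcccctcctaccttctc
Tnfrsf1b, chr4:145246821-145247120, minus strand, TTCNNNGAA 181 bases before the start: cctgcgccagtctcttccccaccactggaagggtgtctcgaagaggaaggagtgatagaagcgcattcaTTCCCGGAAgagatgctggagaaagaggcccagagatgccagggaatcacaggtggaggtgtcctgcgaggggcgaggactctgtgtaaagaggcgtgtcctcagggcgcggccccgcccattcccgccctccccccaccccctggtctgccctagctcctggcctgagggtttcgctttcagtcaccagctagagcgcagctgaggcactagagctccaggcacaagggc
Tnfrsf9, chr4:150927749-150928048, plus strand, TTCNNNGAA 136, GGNNTTTCC 42 and TGANTCA 15 bases before the start: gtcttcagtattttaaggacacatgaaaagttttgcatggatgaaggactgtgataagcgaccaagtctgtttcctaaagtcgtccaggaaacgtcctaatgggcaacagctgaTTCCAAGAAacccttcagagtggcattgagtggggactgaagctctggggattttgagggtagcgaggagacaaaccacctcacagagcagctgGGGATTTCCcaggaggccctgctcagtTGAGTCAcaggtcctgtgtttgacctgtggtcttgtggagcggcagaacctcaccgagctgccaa

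The costimulatory receptors were among the most abundant transcripts of these cells. Levels between genes were compared as normalized counts (reads divided by the size factor of the library) per kilobase of exon, and ranked among 23307 genes with a length. Tnfrsf4, which encodes OX40, had the highest level of the members per kilobase, 4912 ± 905 per kilobase (SD, n = 4 libraries), and ranked 40. Tnfrsf18 (GITR) followed at 2970 ± 621 and rank 91, Tnfrsf9 (4-1BB) at 2848 ± 360 and rank 99, Tnfrsf1b (the receptor TNFR2) at 2771 ± 231 and rank 103. Cd27 came next at 2023 ± 191 and rank 173. Traf1, an adaptor, stood lower at 695 ± 32.6 and rank 675. The receptors with a death domain were the least abundant, with Tnfrsf25 (DR3) at 338.0 ± 66.0 and rank 1600, Fas at 283 ± 35.4 and rank 1988, and Tnfrsf1a (TNFR1) at 153.5 ± 61.3 and rank 3488. In this order the 4 values of neighbouring genes overlapped for Tnfrsf18 and Tnfrsf9, for Tnfrsf9 and Tnfrsf1b, and for Tnfrsf25 and Fas, so these were not ordered beyond their spread. The other neighbours did not overlap, although Tnfrsf4 cleared Tnfrsf18 by little, since its lowest value was 3911 and the highest of Tnfrsf18 was 3832. The order depended on the length used. Without division by length Tnfrsf1b ranked highest of the members at 91, before Tnfrsf9 at 173, Tnfrsf4 at 225 and Traf1 at 261, with Cd27 at 394 and Tnfrsf18 at 426. With the length of the longest transcript in place of all exons Tnfrsf4 was highest at 49, and Cd27 at 141 came before Tnfrsf1b at 160 and Traf1 at 301.

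**Figure D1:**
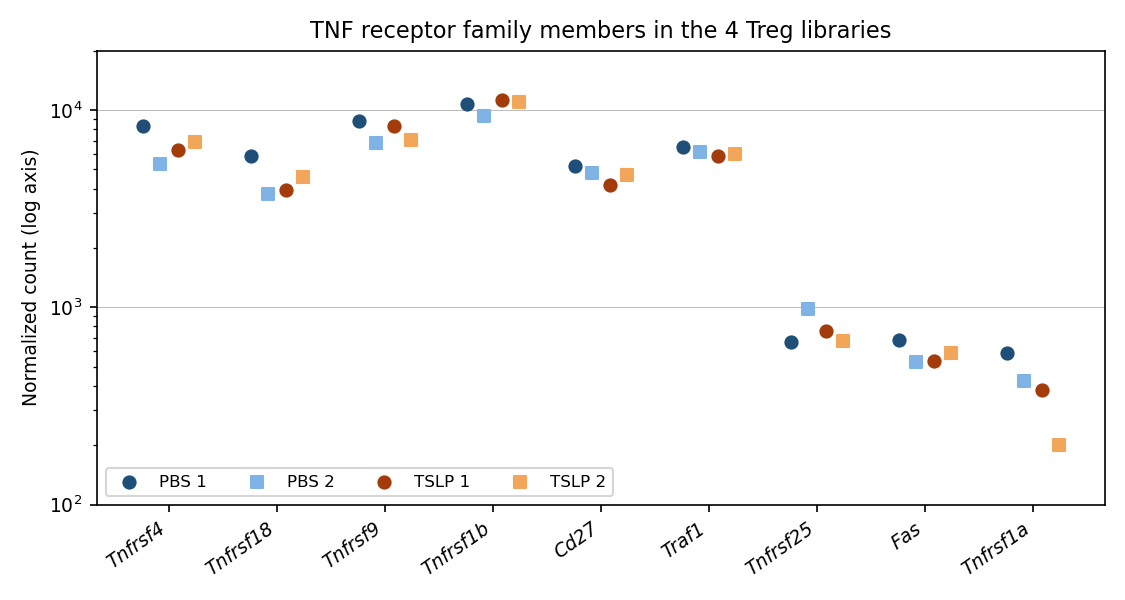
Normalized count (log axis) of each member in PBS 1, PBS 2, TSLP 1 and TSLP 2, 1 point per library. For Tnfrsf1a both TSLP points (379.7 and 200.7) lie below both PBS points (587.4 and 423.2), and for 7 members, Tnfrsf1a among them, the libraries of 1 group lie farther apart on the log2 scale than the groups do.

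No member passed a test for a change with 3 h of TSLP. The test was limma's, made on log2(normalized count + 1) for 11392 genes, those that reached a normalized count of 10 in 2 or more libraries, and all 9 members passed this filter. At an adjusted p under 0.05 (Benjamini-Hochberg over all genes tested), limma called 0 of the 9 members and 0 of all genes tested (0.0%), and 427 genes (3.75%) but 0 members had an unadjusted p under 0.05. On the recovered reads edgeR and DESeq2 also called 0 genes, each with 234 at an unadjusted p under 0.05, and limma with a mean-variance trend called 0, with 192. The count of 0 rests on these 3, since limma without the trend called none of the changed genes on simulated data, where the others called some. With a pseudocount of 0.5, limma without the trend called 44 genes on the measured data, with no member among them. Each member had an adjusted p of 0.9998 by limma without the trend. With 2 samples against 2 an exact permutation test of a single gene cannot give a two-sided p below 0.333, so the fit across all genes is the only test given. In bulk RNA fewer cells of a type and less RNA per cell cannot be told apart.

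The estimates were small for 8 of the members, between -0.18 and 0.16 on the log2 scale, and larger for Tnfrsf1a. They were below 0 for 8 members and above 0 for Tnfrsf1b alone, with a median of -0.099, where 48.8% of all genes tested were lower with TSLP and the median of all genes was 0.012. Both TSLP values lay above both PBS values for Tnfrsf1b (14.5% of all genes tested) and below both for Tnfrsf1a, Cd27 and Traf1 (14.4%), while the groups overlapped for the other 5 members. The count of 8 rested on PBS 1. Without it 4 of the 9 were lower and the median was 0.09, and with the trend over gene length removed 4 were lower and the median was 0.03.

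**Figure D2:**
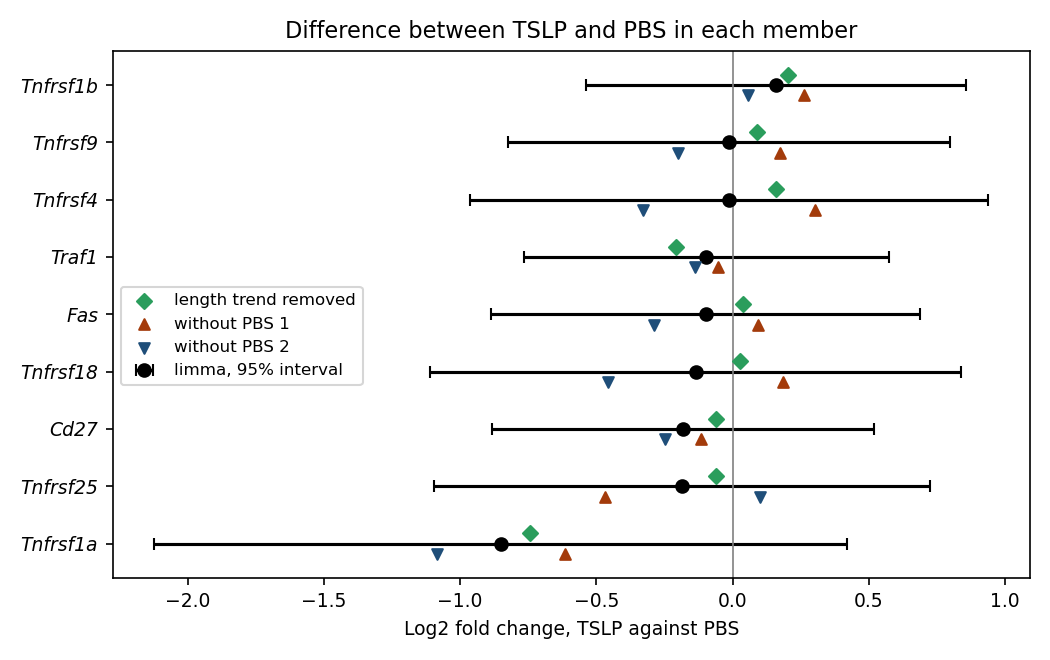
Log2 fold change, TSLP against PBS, of each member, with its 95% interval from limma (black circle and bar), the value with the length trend removed (diamond) and the values without PBS 1 (upward triangle) or PBS 2 (downward triangle). Every interval holds 0, and the sign of Tnfrsf4, Tnfrsf9, Tnfrsf18 and Fas turned from negative to positive without PBS 1 and with the length trend removed, while that of Tnfrsf25 turned positive without PBS 2.

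Among the costimulatory receptors, Tnfrsf4 had normalized counts of 8287 and 5339 with PBS and 6294 and 6898 with TSLP. The PBS values lay on either side of both TSLP values, and the log2 fold change was -0.01 (SE 0.33, 95% interval -0.96 to 0.94). Tnfrsf18, whose product GITR is constitutively high on Treg cells, had 5840 and 3738 with PBS and 3946 and 4581 with TSLP. Its groups overlapped in the same way, and the log2 fold change was -0.14 (SE 0.34, interval -1.11 to 0.84). An antisense gene, Gm16008, shares 414 of the 1524 exon bases of Tnfrsf18, and the strand setting of the counting was not given in the sources used here. Tnfrsf9, an activation-induced receptor, had 8810 and 6801 with PBS and 8353 and 7047 with TSLP, so that both TSLP values fell between the PBS values. Its log2 fold change was -0.01 (SE 0.28, interval -0.82 to 0.80). For these 3 genes the PBS libraries differed more from each other, by 0.634, 0.644 and 0.373 on the log2 scale, than the groups did. Cd27, which binds CD70 and promotes survival of T cells, had 5234 and 4777 with PBS and 4154 and 4674 with TSLP. Its groups did not overlap, but PBS 2 and TSLP 2 nearly met, and the log2 fold change of -0.18 (SE 0.24, interval -0.88 to 0.52) had an unadjusted p of 0.499 by limma.

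The receptors for TNF gave the largest estimates in each direction. Tnfrsf1a encodes TNFR1, a receptor with a death domain that most cells carry, and its reads numbered 606 and 423 in the PBS libraries against 403 and 192 after TSLP. These came to normalized counts of 587.4 and 423.2 with PBS and 379.7 and 200.7 with TSLP. Both TSLP values were below both PBS values, TSLP 1 close to PBS 2 and TSLP 2 far below the rest, with a counting SD of 7.22% on its reads. The level with TSLP was 0.555 times that with PBS (log2 fold change -0.85, SE 0.44, interval -2.12 to 0.42), with an unadjusted p of 0.133 by limma. The p was 0.0581 in edgeR, 0.0688 in DESeq2 and 0.0505 in limma with the mean-variance trend (interval -1.70 to 0.0022). With a replicate block added, the unadjusted p was 0.0206 in edgeR and 0.025 in limma with the trend. Neither fit with the block called any gene at an adjusted p under 0.05. The log2 fold change was -0.39 without TSLP 2 and -1.31 without TSLP 1. In the other direction Tnfrsf1b, which encodes TNFR2, the TNF receptor enriched on Treg cells, had 10720 and 9301 with PBS and 11280 and 11030 with TSLP. The TSLP values were close to each other and just above PBS 1, and the log2 fold change was 0.16 (SE 0.24, interval -0.54 to 0.86). Per kilobase, Tnfrsf1b was 12.4 and 14.9 times as abundant as Tnfrsf1a with PBS and 20.2 and 37.3 times with TSLP, a ratio looked at after the values were seen and not tested.

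The other receptors with a death domain did not separate the groups. Tnfrsf25, the receptor for TL1A that drives Treg cell expansion when engaged, had 664.9 and 986.5 with PBS and 755.5 and 672.0 with TSLP. PBS 2 stood above the other 3 libraries, and the log2 fold change of -0.18 (SE 0.32, interval -1.09 to 0.73) was 0.10 without it. Fas, which triggers apoptosis on binding Fas ligand, had 685.3 and 526.3 with PBS and 535.1 and 587.3 with TSLP. Both TSLP values lay between the PBS values, and the log2 fold change was -0.10 (SE 0.27, interval -0.89 to 0.69). Traf1, an adaptor recruited by TNFR2, 4-1BB and other receptors and a target of NF-kB, varied least of the members, with 6529 and 6144 with PBS and 5874 and 5976 with TSLP. Both of its TSLP values were below both PBS values, by a log2 fold change of -0.10 (SE 0.23, interval -0.76 to 0.57).

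Differences between libraries within a group weighed on these values. For 7 of the 9 members the log2 gap between replicates of at least 1 group exceeded the difference between the groups. Any gene whose groups overlap has such a gap. Only 14.5% of all genes tested lay wholly above with TSLP and 14.4% wholly below, so the count is not particular to the members. PBS 1 was the highest library for 7 members and PBS 2 the lowest for 5, which was not counted over all genes. The members together came to 4313 and 3545 cpm with PBS and 3752 and 3881 with TSLP. The libraries also differed along gene length. Set against the other 3 libraries, PBS 1 had more reads on short genes and fewer on long ones. Its log2 ratio to them had a Spearman rho of -0.508 with exon length over 7881 genes, which are not independent, and with these genes split by length into 10 bins the median ratio went from 0.51 in the shortest bin to -0.49 in the longest. In the other libraries rho was 0.362 (PBS 2), 0.29 (TSLP 1) and 0.155 (TSLP 2). Their reference includes PBS 1, so part of the opposite sign is built in. Of the members 8 were shorter than the median gene, with a median of 2328 exon bases against 4466. Tnfrsf4 and Tnfrsf18, the shortest of them, stood 0.43 and 0.52 above the other libraries in PBS 1, close to the 0.51 of genes of that length. Other members departed from their bins in PBS 1, Tnfrsf25 at -0.26 against 0.30 and Traf1 at 0.12 against -0.25. Tnfrsf1a stood 0.88 above in PBS 1, over the 0.30 of its bin, and its log2 fold change was -0.74 with the length trend removed.

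**Figure D3:**
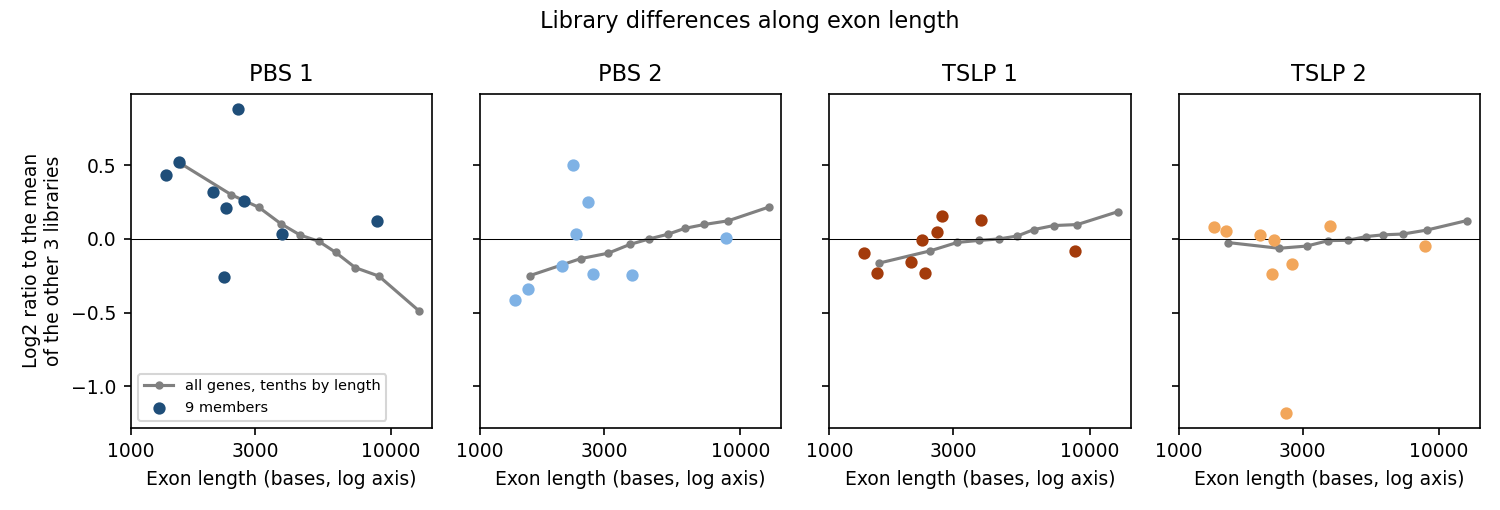
Log2 ratio of each library to the mean of the other 3 against exon length (log axis), with the 9 members as coloured points and the median of each of 10 bins of genes by length as a grey line. In PBS 1 the line falls from 0.51 to -0.49 and most members lie above 0, and in TSLP 2 the lowest point, at -1.18, is Tnfrsf1a.

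The ligand genes of OX40, GITR, 4-1BB and CD27 were low or had 0 reads in these cells. Tnfsf18, the GITR ligand gene, and Cd70, the CD27 ligand gene, had 0 reads in all 4 libraries, and Tnfsf4, the OX40 ligand gene, had 104.7 and 153.1 normalized counts with PBS and 161.1 and 117.0 with TSLP. Tnfsf9, the 4-1BB ligand gene, had 44.6 and 59.0 with PBS and 108.3 and 32.4 with TSLP, so that TSLP 1 and TSLP 2 lay on either side of the PBS libraries. The ligand genes of the TNF receptors were higher. Tnf had 1276 and 812.4 with PBS and 933.6 and 634.4 with TSLP (log2 fold change -0.40, SE 0.39), and its groups overlapped. Lta, which encodes lymphotoxin alpha and also binds TNFR1 and TNFR2, had 361.5 and 252.1 with PBS and 222.3 and 146.3 with TSLP (log2 fold change -0.74, SE 0.37, unadjusted p of 0.123 by limma). Both TSLP values of Lta were below both PBS values, as for Tnfrsf1a and for 14.4% of all genes tested, and TSLP 2 was the lowest. Lta is named after its values were seen. It has 1383 exon bases, and genes of the shortest length bin stood 0.51 above the other libraries in PBS 1. Fasl, which encodes the ligand of Fas, had 388.7 and 194.1 with PBS and 244.0 and 181.8 with TSLP, PBS 1 being the high one. Tnfsf15, the gene of TL1A, had 0 to 12 reads and was not tested.

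**Figure D4:**
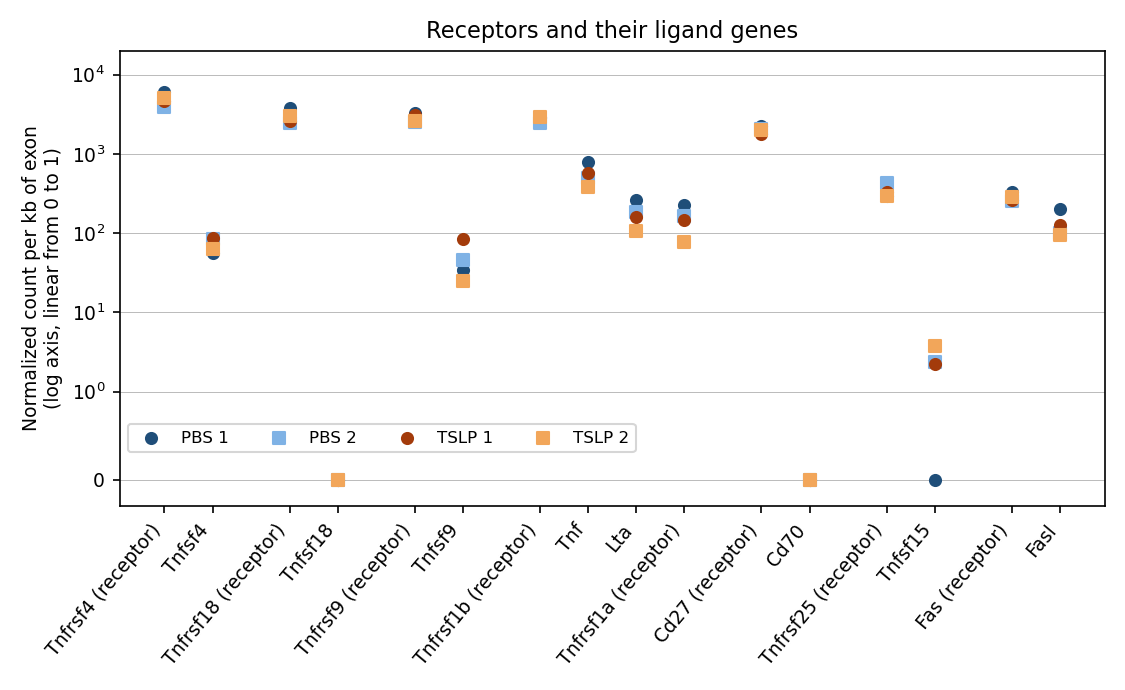
Normalized count per kilobase of exon (log axis, linear from 0 to 1) of the 8 receptors and of their ligand genes in the 4 libraries. Ligand genes are placed after their receptor, and Tnf and Lta, shared by TNFR1 and TNFR2, stand between Tnfrsf1b and Tnfrsf1a. The points of Tnfsf18 and Cd70 lie at 0 in all libraries, and those of OX40, GITR, 4-1BB, CD27 and TNFR2 lie at or above 1784.

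Around the members, the rest of the pathway was measured with lists of other receptors, ligands, adaptors, brakes and NF-kB genes, and limma called 0 genes of any of them at an adjusted or an unadjusted p under 0.05. Of 20 other TNF receptors 11 were tested, 4 higher and 7 lower with TSLP (median -0.125, and from -0.41 without PBS 1 to 0.46 without TSLP 2). The highest counts were those of Tnfrsf26, Relt and Tnfrsf14, with log2 fold changes of -0.07 (SE 0.25), 0.39 (SE 0.40) and -0.18 (SE 0.43). Of 17 ligands 11 were tested, 6 higher and 5 lower (median 0.116, but -0.17 without PBS 2 and -0.11 without TSLP 1), led by Tnfsf8 (the CD30 ligand), Ltb and Tnf. Tnfrsf8, the CD30 gene, went from 0 and 8 reads in the PBS libraries to 16 and 20 in the TSLP libraries and is named for this difference at few reads. It passed the filter through the TSLP libraries alone, so it had to be higher there. All 24 adaptors and ligases were tested, 14 higher and 10 lower (median 0.048, but 0.0109 with the length trend removed and 0.0151 to 0.0328 without single libraries). Birc3, an ubiquitin ligase bound by TRAF proteins, had a log2 fold change of 0.19 (SE 0.26), Tab2, which links ubiquitin chains to the kinase TAK1, 0.15 (SE 0.24), and Tank, a TRAF-binding protein, 0.28 (SE 0.24). Tradd, the adaptor of TNFR1 and DR3, is named after its values were seen. It had 335.4 and 317.2 with PBS and 228.9 and 215.3 with TSLP, groups that did not overlap. Both TSLP values lay below both PBS values, as for 14.4% of all genes tested. Its log2 fold change of -0.55 (SE 0.23, unadjusted p of 0.0834 by limma) was the lowest of this list. With 1866 exon bases it is shorter than the median gene (4466).

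Of 19 brakes and death effectors 17 were tested, 8 higher and 9 lower with TSLP (median -0.022, and from -0.04 without PBS 2 to 0.06 without PBS 1). Tnfaip3, which encodes the ubiquitin-editing enzyme A20 that limits NF-kB, had a mean level of 5204 per kilobase, beside 4912 for Tnfrsf4, and a log2 fold change of 0.05 (SE 0.33), while Tnip1, which binds A20, had -0.03 (SE 0.24) and Tax1bp1, another partner of A20, 0.13 (SE 0.25). The NF-kB list had 4 genes higher and 10 lower of 14 (median -0.117, and from -0.23 without TSLP 1 to 0.0075 without PBS 2). In it Nfkb1, the p105 subunit gene, had a log2 fold change of 0.13 (SE 0.25), and the inhibitor genes Nfkbia and Nfkbid had -0.31 (SE 0.45) and -0.42 (SE 0.41). Immediate early genes, which mark recent stimulation, were 3 higher and 10 lower of 13 (median -0.242, and from -0.60 without PBS 2 to 0.11 without PBS 1). Their summed level was 11500 and 8160 cpm with PBS and 10100 and 7480 with TSLP, higher in PBS 1 and TSLP 1 than in the other library of each group. Junb, Nr4a1 and Nr4a3, the most abundant of them, had log2 fold changes of -0.31 (SE 0.47), -0.19 (SE 0.37) and 0.16 (SE 0.26). The part of this difference in the values of the members was not tested.

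**Figure D5:**
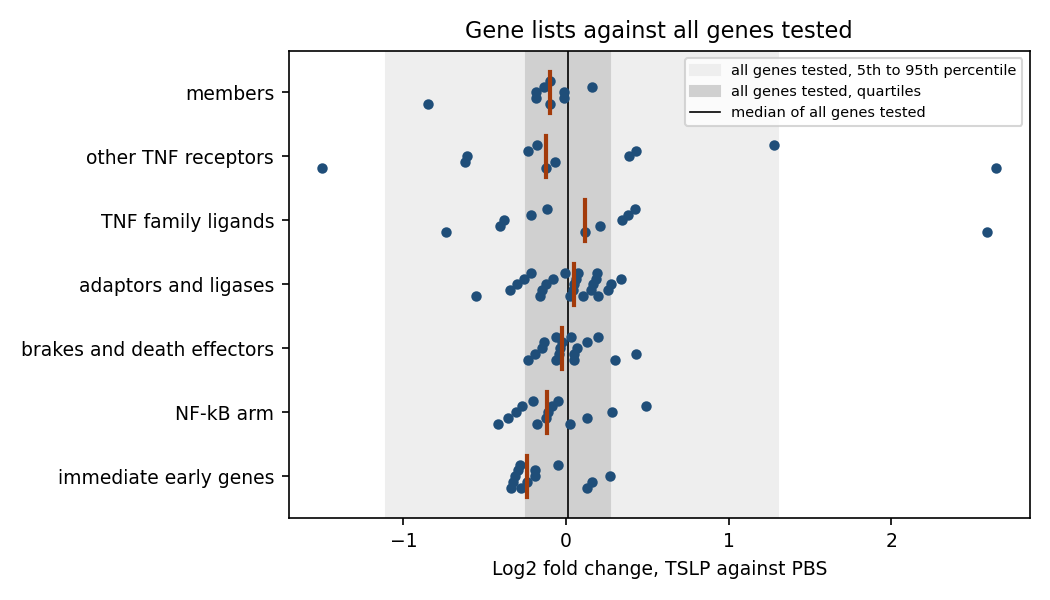
Log2 fold change, TSLP against PBS, of the tested genes of each list (points, spread vertically for legibility) with the median of the list (red bar), over the quartiles and the 5th to 95th percentiles of all 11392 genes tested (grey). The members run from -0.85 for Tnfrsf1a to 0.16 for Tnfrsf1b, and the quartiles of all genes from -0.25 to 0.27.

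Genes with a profile over the 4 libraries like that of each member were sought by the root mean square (RMS) difference of centred log2 values among 8173 genes with a mean normalized count of at least 100. The nearest were Ict1, Arf2 and Adk for Tnfrsf4, with RMS differences of 0.0101, 0.0122 and 0.0133, Prmt1, Dnajc11 and Taldo1 for Tnfrsf18, with 0.0137, 0.0166 and 0.021, and Gnas, Rnf19b and Cdk9 for Tnfrsf9, with 0.0074, 0.0144 and 0.0153. Cd27 was nearest to Tmem110, Pou2f2 and Plgrkt (0.0101, 0.0118 and 0.0152), Tnfrsf1b to Ttc19, Hbp1 and Ppt1 (0.0063, 0.0169 and 0.0179), and Traf1 to Pold1, Ghitm and Msl1 (0.0127, 0.0143 and 0.0151). Tnfrsf25 was nearest to Mink1, Chuk and Zfp282 (0.0044, 0.0117 and 0.0124) and Fas to Metap2, Zc3h12a and Ctsb (0.0166, 0.0205 and 0.0212). Tnfrsf1a, whose own profile varied most (RMS 0.560, against 0.0579 for Traf1, which varied least), was nearest to Fbxw17, Bcl7b and Gtdc1, with 0.0779, 0.0826 and 0.0926. None of the neighbours was itself a member, and with 4 libraries near profiles are a description only.

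Markers of other cells were low beside the T cell markers, and single markers within a list went different ways. The 8 B cell markers summed to 5.21 and 10.5 cpm with PBS and 5.87 and 11.6 with TSLP, the most abundant being Cd79b, and the 5 NK cell markers to 2.56, 3.82, 2.38 and 10.5, with Ncr1, Klra8 and Klrd1 at 0 in every library. The 5 dendritic cell markers summed to 9.53, 11.5, 7.74 and 13.4 cpm, led by Xcr1, with Flt3 and Siglech at 0 in every library, and the 3 CD8 T cell markers to 15.3, 11.7, 10.8 and 20.1, led by Cd8b1. The 8 myeloid markers summed to 61.6 and 40.1 cpm with PBS and 41.7 and 42.4 with TSLP, mostly Cst3 (44.0, 28.2, 32.6 and 33.7 cpm), while Adgre1 and Tyrobp had 0 reads in every library. PBS 1 was highest and PBS 2 lowest in this sum, as in that of the members. Cd68, a macrophage marker, had 174 and 66 reads in the PBS libraries against 59 and 16 in the TSLP libraries, but Lyz2, a lysozyme of myeloid cells, went the other way with 1 read in PBS 1 against 43, 37 and 40 in PBS 2, TSLP 1 and TSLP 2. Csf1r, the receptor of macrophage growth factor, had 1 and 0 reads in the PBS libraries against 1 and 27 in the TSLP libraries. The part of myeloid cells in the values of the members was not tested. Itgam, an integrin of myeloid cells, was the only marker with an unadjusted p under 0.05, with 23 and 19 reads in the PBS libraries against 4 and 7 in the TSLP libraries (log2 fold change -1.78, unadjusted p of 0.0117 and adjusted p of 0.810 by limma). It passed the filter through the PBS libraries alone, so it had to be lower with TSLP. The 8 conventional T cell markers summed to 1370 and 1490 cpm with PBS and 1600 and 1470 with TSLP, led by Satb1, which Treg cells also express. The 12 Treg and T cell markers summed to 6780 and 7610 with PBS and 7490 and 7700 with TSLP, and this sum was lowest in PBS 1, where that of the members was highest. Within the list Ctla4, Cd3d, Cd3g and Cd5 were highest in PBS 1, while Foxp3, Il2ra, Ikzf2, Ikzf4, Cd4, Cd3e and Cd28 were lowest there.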

How the data were processed

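RNA of 2 PBS and 2 TSLP samples was sequenced by the authors from a NEBNext Ultra II Directional library, mapped with HISAT2 to mm10 and counted with HTSeq. The annotation and strand setting were not given in the sources used here. The deposited values are a signal, the authors' read counts divided by 1 size factor per library (0.956882 to 1.061482), and 100% were whole reads within 0.01. Of the gene names 27 had turned into dates. limma 3.58.1 (R 4.3.3, mean-variance trend off) was fitted to log2(normalized count + 1) with treatment as the only term, and fold changes on this scale understate low genes. Tested on simulated data, this setting returned the sizes but called none of the changed genes at an adjusted p under 0.05, where limma with the trend on, edgeR and DESeq2 called some. Limma with the trend on was added after seeing the data. Alternatives were edgeR 4.0.16 and DESeq2 1.42.0 on recovered reads, TMM, other filters and pseudocounts, a replicate block, removal of the length trend, and each library left out. Depth was 10271571 to 11761234 reads on genes.

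Members and gene lists were chosen with earlier results of these data known. Genes named are the members, the genes of the lists with an unadjusted p under 0.05 or among the 3 with the highest mean normalized count, and the 3 nearest profiles of each member. The other genes named (Tnfrsf8, Tradd, Gm16008, Lta and the remaining ligand genes of the receptors, Foxp3, Il2ra, Ikzf2, Ikzf4, Cd4, Cd3d, Cd3e, Cd3g, Cd28, Csf1r, and markers with 0 reads) were chosen after their values were seen. Exon lengths and positions came from GENCODE M21, and promoters from RefSeq.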

Additional observations from a re-analysis of the deposited data

How the results depend on the processing

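The count of 0 genes at an adjusted p under 0.05 was the same in 16 of 17 alternatives, and with a pseudocount of 0.5 it was 44, with no member among them. Most of the 16 were limma without the mean-variance trend. That setting called none of the changed genes on simulated data, so its 0 shows no stability. The count at an unadjusted p under 0.05, 427, was 234 with edgeR, 234 with DESeq2, 215 with edgeR and a replicate block, 192 with the mean-variance trend in limma, 258 with that and a replicate block, 262 with that and the length trend removed, and 391 to 1263 without single libraries, the highest without PBS 2. The count of 8 members lower with TSLP was 4 without PBS 1 and 4 with the length trend removed, with or without the mean-variance trend, and 4 to 7 over the libraries left out. Without single libraries the median of the members ran from -0.248 to 0.091. With the length trend removed, with or without the mean-variance trend, Tnfrsf4 was 0.158, Tnfrsf9 0.0875, Tnfrsf18 0.0259 and Fas 0.0359. Leaving out single libraries gave -0.33 to 0.30 for Tnfrsf4, -0.20 to 0.17 for Tnfrsf9, -0.46 to 0.19 for Tnfrsf18, -0.289 to 0.091 for Fas and -0.47 to 0.10 for Tnfrsf25. Tnfrsf1a, Tnfrsf1b, Cd27 and Traf1 kept their sign in all 17 alternatives, over which Tnfrsf1b ran from 0.057 (without PBS 2) to 0.262 (without PBS 1), Cd27 from -0.268 to -0.0605 (length trend removed) and Traf1 from -0.209 (length trend removed) to -0.0525 (without PBS 1). Tnfrsf1a had an unadjusted p under 0.05 in 2 of them, 0.0206 in edgeR with the replicate block and 0.025 in limma with the trend and the block, and its lowest adjusted p was 0.543. Its log2 fold change ran from -1.31 to -0.39 without single libraries. Without division by length the ranks were 225 for Tnfrsf4, 173 for Tnfrsf9, 426 for Tnfrsf18, 4977 for Tnfrsf1a, 91 for Tnfrsf1b, 3230 for Tnfrsf25, 394 for Cd27, 3948 for Fas and 261 for Traf1, and with the longest transcript 49 for Tnfrsf4, 160 for Tnfrsf1b, 141 for Cd27 and 301 for Traf1. Deviations of samples with the same number correlated by 0.025 over 8174 genes (0.068 over 7881 with the length trend removed), and the labels give no shared origin, so the numbers were not taken as pairs. The replicate block in limma and in edgeR called 0 genes. The causes of these shifts were not tested. A fit without 1 library assumes that the lone sample varies like the other group.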
